A study of Saccharomyces cerevisiae with 5 samples.

Results

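The genes for the proteins of the large subunit of the cytosolic ribosome of budding yeast were followed in a strain without SUL1 and in its wild type. They were chosen by symbol alone, as every gene of the tables named RPL with a number (and A or B for one of a pair of copies) together with RPP0, RPP1A, RPP1B, RPP2A and RPP2B. This gave 79 of the 5886 genes, made up of 32 pairs of RPL copies, 10 single-copy RPL genes and 5 genes of the stalk. They lie on 14 chromosomes, and 53 of them carry an intron. All 79 matched the R64 annotation by identifier and symbol, and RPL41A and RPL41B, which that annotation also holds, were not analysed here.

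The large subunit joins amino acids at its peptidyl transferase centre, an RNA active site that is surrounded by ribosomal proteins, and passes the growing chain through an exit tunnel. Its flexible stalk of acidic proteins draws in the elongation factors, and a 5S RNA with its own protein partners forms the central protuberance. In yeast, ribosomal protein genes are among the most highly transcribed genes. They are driven by Rap1, Fhl1, Ifh1 and Sfp1 under the control of the TORC1 and protein kinase A pathways. Deletion of several of them, RPL20B, RPL31A, RPL6B and RPL22A included, has been linked to a longer replicative lifespan.

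The study asked how loss of SUL1, a high-affinity sulphate transporter of the plasma membrane, extends replicative lifespan, and its title names a lower protein kinase A activity. Both groups were BY4741, a haploid of mating type a derived from S288C that also carries deletions of auxotrophic marker genes. Exponentially growing cells came from YPD at 30 °C, with 2% glucose, 2% peptone and 1% yeast extract. The SUL1 knockout had 3 libraries, for which an optical density at 600 nm of 0.6 is given, and the wild type had 2, each a biological replicate by its title. A further wild-type replicate mentioned in the design was not analysed here, and neither the deletion cassette nor the number of clones is given in the sources used here. SUL1 was listed at 0 FPKM in all 3 knockout libraries and at 8.28 and 9.78 FPKM in the wild type. MET17, which BY4741 lacks, was listed at 0 in all 5 libraries. Of the receptors that mark mating type, STE2 of a cells lay between 115 and 145 FPKM and STE3 of alpha cells between 8.38 and 11.8 FPKM. Other genes of a cells were near the level of STE3, with STE6 at 11.84 to 19.23, ASG7 at 9.62 to 15.82 and BAR1 at 8.6 to 16.95 FPKM. Of the alpha-factor genes, MF(ALPHA)2 lay between 4.97 and 8.44 FPKM and MF(ALPHA)1 at 0.8 or less.

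Values are FPKM, read fragments of a gene scaled to its length in kilobases and to the total fragments of the library. From the steps between low values, the libraries held an estimated 22350000 (wild-type replicate 2) to 24850000 fragments (knockout replicate 3). Differences are log2 fold changes of FPKM + 1, knockout over wild type, ± SE, and adjusted p-values are limma's with the Benjamini-Hochberg adjustment over all 5712 genes tested, called below 0.05. With 3 and 2 libraries, p-values measure the spread between these few cultures. In libraries of whole cultures, less of a transcript per cell and fewer cells that carry it cannot be told apart.

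None of the 79 large-subunit genes was called different between the knockout and the wild type, where 0.263% of all genes tested were called (15 of 5712). All 79 passed the filter of a mean of at least 1 FPKM, and their log2 fold changes lay between -0.22 and 0.77. The median was 0.08, against -0.07 over all genes tested. Scaling the libraries to equal FPKM sums shifted all genes almost alike, by a median of -0.09, so the medians became -0.01 for the large-subunit genes and -0.16 for all genes. Any median or gene within that distance above 0 changes sign under this scaling by construction, and its place relative to all genes stays. Values were higher in the knockout for 51 genes and lower for 28. At an unadjusted p under 0.05, 15 members (19.0%) were higher and 1 (1.27%) was lower. Among all genes tested, 18.6% reached that p, 6.92% higher and 11.6% lower. For 25 members (31.6%) all 3 knockout libraries lay above both wild-type libraries, against 13.1% of all genes. For 12 members (15.2%) they lay below both, against 28.0% of all genes, and for the other 42 the groups overlapped.

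**Figure D1:**
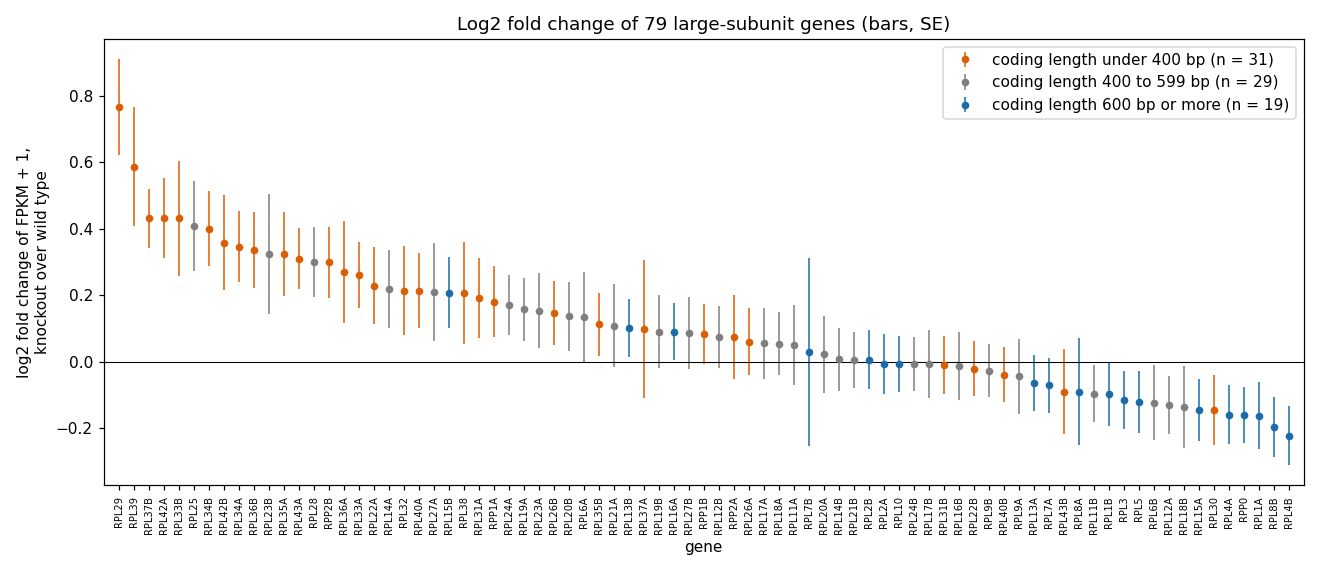
Log2 fold changes of FPKM + 1, knockout over wild type, of the 79 large-subunit genes in order of size, with their standard errors as bars. Values run from 0.77 for RPL29 to -0.22 for RPL4B, and no gene passed the adjusted threshold of 0.05.

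This order ran in part with gene length. Among the 31 members with a coding sequence under 400 bp, 26 had higher values in the knockout and the median log2 fold change was 0.21. The 29 members from 400 bp to under 600 bp had a median of 0.05, which that shift took to -0.04, as it took all genes of that length from 0.10 to 0.01. For the 19 members of 600 bp or more the median was -0.09, and 14 of them had lower values in the knockout. All genes tested showed the same order, with medians of 0.17, 0.10 and -0.10 over 485, 529 and 4698 genes of those lengths. All knockout libraries lay above the wild type for 17 of the 31 short members (54.8%) and for 38.6% of all short genes. From 400 bp to under 600 bp they lay above it for 5 of the 29 members (17.2%) and for 27.0% of all genes. They lay below it for 9 of the 19 long members (47.4%) and for 32.7% of all long genes. Spearman's correlation of the log2 fold change with coding length was -0.67 over the 79 members and -0.52 over all 5712 genes, across genes that share the same 5 libraries. After a smooth length trend fitted to all genes was removed, it was -0.41 over the members and 0.02 over all genes, and the members' median was -0.02.

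**Figure D2:**
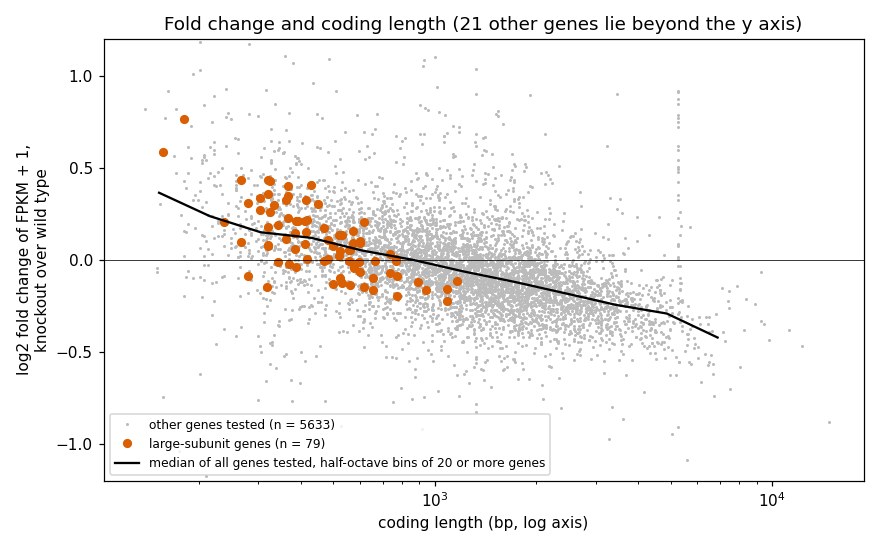
Log2 fold change of FPKM + 1, knockout over wild type, against coding length on a log axis, with large-subunit genes drawn over all other genes tested. Short members sit mostly above 0 and long members mostly below it, with Spearman's correlation at -0.67 for the members and -0.52 for all genes.

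The 2 shortest members, RPL29 and RPL39, had the 2 largest fold changes, and their whole coding sequences are printed because their shortness bears on how their FPKM can be read. Bases are in the sense of the transcript, from the RefSeq R64 genome, with introns left out and the start and stop codons in capitals. RPL29 lies at chrVI:223258-223437 on the minus strand and RPL39 at chrX:75933-76474 on the plus strand.
RPL29: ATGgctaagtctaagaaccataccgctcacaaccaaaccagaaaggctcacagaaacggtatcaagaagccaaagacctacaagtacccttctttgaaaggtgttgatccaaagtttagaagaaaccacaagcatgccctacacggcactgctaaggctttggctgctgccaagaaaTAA
RPL39: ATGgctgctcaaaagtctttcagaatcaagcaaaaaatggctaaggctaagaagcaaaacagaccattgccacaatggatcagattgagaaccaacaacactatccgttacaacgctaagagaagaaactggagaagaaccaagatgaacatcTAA

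RPL29 encodes a small protein of the subunit that yeast can live without. It measured 461, 593 and 616 FPKM in the knockout and 350.2 and 299.9 in the wild type. Every knockout library was above both wild-type libraries, with a log2 fold change of 0.77 ± 0.14 (adjusted p = 0.113). Over the alternative settings its adjusted p lay between 0.0297 and 0.737. It was called without knockout replicate 1 (log2 fold change 0.90, adjusted p = 0.0442) and without knockout replicate 2 (0.72, adjusted p = 0.0297). Of all genes tested, 9 and 896 were called in those settings.

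RPL39 encodes the small basic protein that lines the narrow part of the exit tunnel. It measured 985, 1129.99 and 1132 FPKM in the knockout and 889 and 581 in the wild type. The groups did not overlap, but the wild-type libraries were further apart than the higher of them was from the lowest knockout library, and the log2 fold change was 0.59 ± 0.18 (adjusted p = 0.201). It was 0.28 without wild-type replicate 2 and 0.89 without wild-type replicate 1. The deposited FPKM behaved as if about 134 to 142 bases had been taken off each coding length before dividing, with an error of up to 7 bases on simulated data. Taken at face value, that would leave 38 to 46 of the 180 coding bases of RPL29, and 14 to 22 of the 156 of RPL39. In both genes it leaves most bases for knockout replicate 3. That estimate came from genes of 250 bp and more, so how these 2 genes were divided, and its part in their values, was not tested.

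RPL37B, RPL42A, RPL33B and RPL25 followed in size. RPL37B, one of 2 copies for a zinc-binding protein, had 3420, 3540.0 and 3177 FPKM in the knockout and 2557 and 2448 in the wild type. Its groups were well apart, with a log2 fold change of 0.43 ± 0.09 (adjusted p = 0.132). Without knockout replicate 2 the adjusted p was 0.0224, and without any other single library 0.300 to 0.737. RPL42A had 10613, 11918 and 9231 FPKM against 7917 and 7697, a log2 fold change of 0.43 ± 0.12 (adjusted p = 0.182). Without knockout replicate 2 the adjusted p was 0.0462, and without any other single library 0.300 to 0.737. RPL33B had 9193, 11782 and 8158 FPKM against 7956 and 6369, a log2 fold change of 0.43 ± 0.17 (adjusted p = 0.256). In RPL33B the lowest knockout library was close to the higher wild-type library, and without wild-type replicate 2 its log2 fold change was 0.27. With the length trend removed, the log2 fold changes were 0.47 for RPL29, 0.27 for RPL39, 0.22 for RPL37B, 0.25 for RPL42A and 0.25 for RPL33B, with adjusted p between 0.358 and 0.542. RPL34B and RPL34A, copies of 1 gene, had log2 fold changes of 0.40 and 0.35, and all their knockout libraries were above the wild type.

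**Figure D3:**
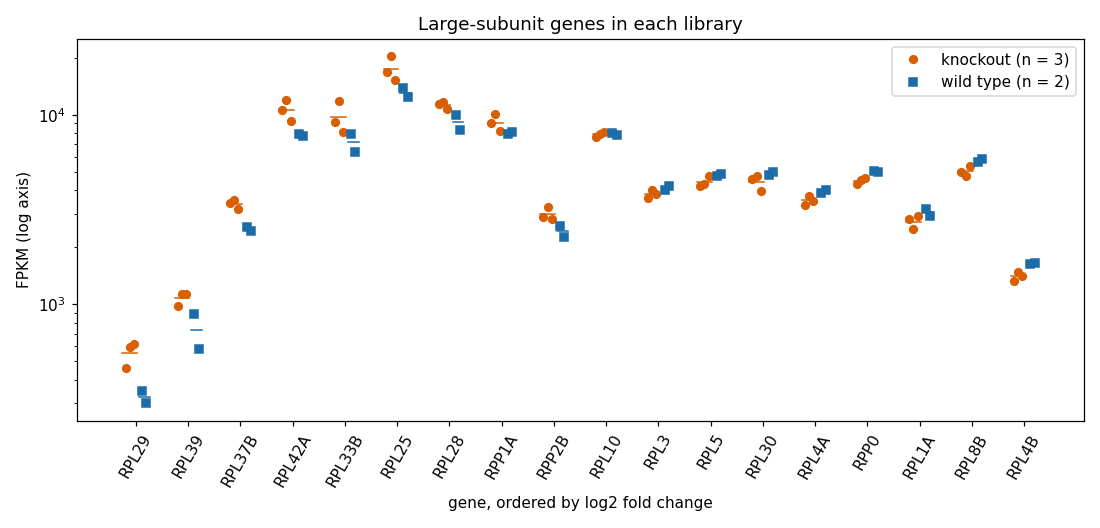
FPKM on a log axis in each of the 5 libraries for a selection of the named large-subunit genes. They run from RPL29 with the largest log2 fold change to RPL4B with the lowest, except that RPP1A stands before RPP2B. Knockout and wild-type points are mixed for RPL10 and RPL5. They are apart for the other genes drawn, as for RPL37B with 3177 to 3540.0 against 2448 to 2557 FPKM. Over all 79 members the groups overlapped for 42.

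Around the catalytic centre and the path of the transfer RNAs, RPL28 and the copies RPL42A and RPL42B had higher values in the knockout, and RPL3 and RPL10 had lower ones. RPL42A and RPL42B are nearly identical and count as 1 here. RPL28, a single-copy gene in which mutations give resistance to cycloheximide, had 11331, 11688 and 10787 FPKM against 9995 and 8359. All its knockout libraries were the higher ones, with a log2 fold change of 0.30 ± 0.11 (adjusted p = 0.220). RPL42A and RPL42B, whose protein sits at the exit site of the transfer RNA, summed to 26994, 28891 and 21703 FPKM in the knockout and 19827 and 19402 in the wild type. That sum had a log2 fold change of 0.39 ± 0.13 (adjusted p = 0.213). RPL3, which reaches into the peptidyl transferase centre, had 3631, 3989 and 3809 FPKM against 4022 and 4224. Its 3 knockout libraries were the lowest, by a log2 fold change of -0.11 ± 0.09 (adjusted p = 0.480). RPL10, whose protein joins the subunit late in the cytoplasm, had 7646, 7926 and 8109 FPKM against 8009 and 7853, a log2 fold change of -0.01 ± 0.08 (adjusted p = 0.970).

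At the exit tunnel and its rim, the 10 genes ranged from RPL39 at 0.59 to RPL4B at -0.22, with a median of 0.08, or -0.01 after the common shift of equal FPKM sums. RPL25, whose protein docks the signal recognition particle and nascent-chain factors at the tunnel exit, was the third most abundant member. It had 16781, 20369 and 15269.6 FPKM in the knockout and 13827 and 12358 in the wild type. Knockout replicate 2 was far the highest, and the log2 fold change was 0.41 ± 0.14 (adjusted p = 0.211). RPL31A, next to the same exit, had 8747, 10199.9 and 8339.5 FPKM against 8590.4 and 7327. Its groups overlapped, with a log2 fold change of 0.19 ± 0.12 (adjusted p = 0.410).

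RPL4A and RPL4B, whose protein reaches into the tunnel wall, lay at the other end. RPL4B had 1319.6, 1489 and 1410.5 FPKM against 1624 and 1655. All its knockout libraries were below the wild type, with a log2 fold change of -0.22 ± 0.09 (adjusted p = 0.247, unadjusted p = 0.0390 in the same limma fit). RPL4A had 3352, 3730.1 and 3515 FPKM against 3885 and 3998, in the same order, with a log2 fold change of -0.16 ± 0.09 (adjusted p = 0.351).

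The stalk genes differed in sign. RPP0, the scaffold on which the stalk is built, had 4299, 4533 and 4656 FPKM against 5042 and 5011. Its knockout libraries were all lower, by a log2 fold change of -0.16 ± 0.08 (adjusted p = 0.335). Of the acidic proteins bound to it, RPP2B had 2880.2, 3251 and 2817 FPKM against 2590.1 and 2259.8. All its knockout libraries were higher, by a log2 fold change of 0.30 ± 0.11 (adjusted p = 0.226). RPP1A had a log2 fold change of 0.18 ± 0.11 (adjusted p = 0.383), with its knockout libraries at 8198 FPKM and above and its wild type at 8069 and below. RPP1B and RPP2A, at 0.08 ± 0.09 (adjusted p = 0.618) and 0.07 ± 0.13 (adjusted p = 0.760), overlapped between groups. RPL12A and RPL12B, whose protein forms the stalk base, had log2 fold changes of -0.13 and 0.07.

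The proteins that carry 5S RNA into the ribosome are Rpl5 and Rpl11. RPL5 had 4209, 4319 and 4781 FPKM against 4759 and 4878, with overlap and a log2 fold change of -0.12 ± 0.09 (adjusted p = 0.480). RPL11B, at -0.10 ± 0.08 (adjusted p = 0.535), had all knockout libraries just below the wild type. RPL11A, at 0.05 ± 0.12 (adjusted p = 0.841), overlapped.

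RPL40A and RPL40B encode the protein as a fusion behind ubiquitin, so they also supply ubiquitin. RPL40A was the most abundant member, with 18873, 21581 and 17464 FPKM against 17248 and 15950.4. Its lowest knockout library was just above the higher wild-type library, with a log2 fold change of 0.21 ± 0.11 (adjusted p = 0.336). RPL40B had 7883, 8081 and 7617 FPKM against 7972 and 8176, with overlap and a log2 fold change of -0.04 ± 0.08 (adjusted p = 0.813).

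Among the long genes, RPL8B and RPL1A had the most negative log2 fold changes after RPL4B. RPL8B, a copy for a protein bound early to the pre-ribosome, had 4987, 4749 and 5338 FPKM against 5653 and 5855, a log2 fold change of -0.20 ± 0.09 (adjusted p = 0.290). RPL1A, a copy for the protein of the mobile arm beside the exit site, had 2804, 2485 and 2907 FPKM against 3169.98 and 2939.8, a log2 fold change of -0.16 ± 0.10 (adjusted p = 0.400). Both had all knockout libraries below the wild type, RPL1A by a narrow margin.

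RPL30 and RPL43B were short genes that stood against the length order. RPL30, 318 bp long, whose protein represses the splicing of its own transcript, had 4564, 4781 and 3962 FPKM against 4821 and 4967. Its knockout libraries were all lower, with a log2 fold change of -0.15 ± 0.10 (adjusted p = 0.459). RPL43B, 279 bp long, had a log2 fold change of -0.09 with overlapping groups, while its copy RPL43A had 0.31 with all knockout libraries above the wild type.

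Of the genes linked to replicative lifespan by their deletion, none was called. RPL20B had 10565.8, 12057 and 10445 FPKM against 10539 and 9497, with overlap and a log2 fold change of 0.14 ± 0.10 (adjusted p = 0.480). RPL6B had 3061, 3764 and 3099 FPKM against 3628 and 3549.7, with overlap and a log2 fold change of -0.12 ± 0.11 (adjusted p = 0.545). RPL22A had 9406, 11182 and 8886 FPKM against 8425 and 8269, all knockout libraries above, with a log2 fold change of 0.23 ± 0.12 (adjusted p = 0.324). RPL32, a single-copy gene with overlapping groups, had a log2 fold change of 0.21 ± 0.13 (adjusted p = 0.408).

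Levels differed far more between members than between strains. After RPL40A, the mean over the 5 libraries was highest for RPL33A at 17129 FPKM and RPL25 at 15721 FPKM. The neighbours RPL40A and RPL33A were closer than their spread, at 19306 ± 2092 and 18332.5 ± 688 FPKM (SD, n = 3) in the knockout. RPL15B was the lowest member, with 189, 176 and 186 FPKM in the knockout and 175 and 144 in the wild type. At the estimated depth RPL15B rests on 1527 to 2223 fragments per library, a counting error of up to 2.56%. RPL29 was next at a mean of 464 FPKM. RPL7B followed at a mean of 599.8 FPKM, with 442 and 528 in knockout replicates 1 and 3, 874 in replicate 2, and 589 and 565 in the wild type. The introns of RPL7A and RPL7B overlap the small nucleolar RNAs SNR39 and SNR59 on the same strand, so their values are uncertain.

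Knockout replicate 2 stood apart in these genes. It held the highest value of all 5 libraries for 50 of 79 members, and the highest of the knockout for 60. Wild-type replicate 2 held the lowest value of all 5 for 43 members, and wild-type replicate 1 was above it for 66. The median deviation from each gene's mean was 0.00, 0.15 and -0.04 log2 units in knockout replicates 1, 2 and 3, and 0.01 and -0.10 in wild-type replicates 1 and 2. In the members under 400 bp it was 0.25 in knockout replicate 2 and -0.23 in wild-type replicate 2. In those of 600 bp or more it was 0.02 and 0.04 in these libraries. There it was highest in wild-type replicate 1, at 0.06, and lowest in knockout replicate 1, at -0.08. The members' median log2 fold change was 0.01 with knockout replicate 2 left out. RPL29, RPL37B and RPL42A were then called higher and no member lower, 3 of 79, where 5.22% of all genes were called higher and 10.5% lower. With the length trend removed as well, no member was called, where 3.45% of all genes were called higher and 1.72% lower.

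**Figure D4:**
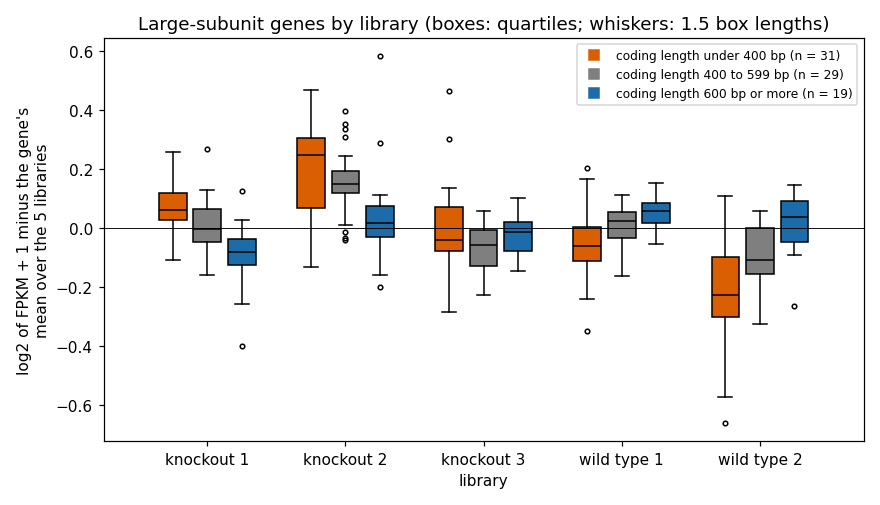
Deviation of each large-subunit gene from its own mean over the 5 libraries, in log2 units of FPKM + 1, as boxes per library and class of coding length. Under 400 bp, knockout replicate 2 has the highest median, 0.25, and wild-type replicate 2 the lowest, -0.23. At 600 bp or more, wild-type replicate 1 has the highest, 0.06, and knockout replicate 1 the lowest, -0.08.

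In total, the large-subunit genes took 26.2%, 27.8% and 25.2% of the FPKM sum in the knockout and 25.9% and 25.1% in the wild type. The groups overlapped, at 26.4% ± 1.34 (SD, n = 3) against 25.5% ± 0.58 (SD, n = 2). Weighted by coding length, which is closer to a share of fragments, the values were 18.0% ± 1.11 and 16.8% ± 0.67.

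Most large-subunit proteins come from a pair of genes, and the balance of the copies is a measure that a scaling of the whole library leaves in place. Each of the 34 pairs, RPP1 and RPP2 included, kept the same copy ahead in all 5 libraries, copy A in 21 and copy B in 13. The median fold between copies was 2.15, with 19 pairs over 2-fold. No pair had a ratio called different between strains, and 0.0% of the 60 A and B pairs of the tables did. The groups did not overlap for 16 of 34 pairs, against 50.0% of the 60 pairs. The A copy was favoured in the knockout in 11 of these and the B copy in 5, against 20 and 10 over the 60 pairs.

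**Figure D5:**
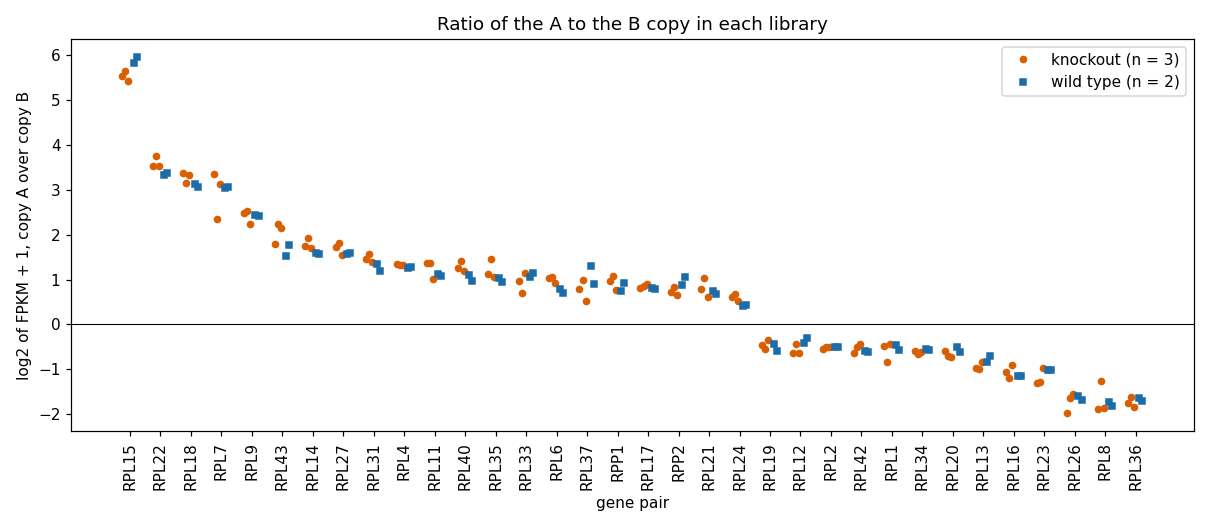
Log2 ratio of the A to the B copy in each library for the 34 large-subunit pairs. RPL15 is highest, at a 51.2-fold mean excess of copy A, and no pair crosses 0 between libraries.

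RPL15 had the most unequal copies, and the 60 coding bases in which they differ most are printed. Elsewhere the copies share an identical run of 116 bases. How reads of such stretches were shared out is not given in the sources used here. The level of RPL15B, far the lower copy, and the ratio are therefore uncertain. Capitals mark the 9 differing bases, at coding positions 430 to 489 counted from the start codon, from the RefSeq R64 genome. RPL15A lies on chromosome XII and RPL15B on chromosome XIII.
RPL15A: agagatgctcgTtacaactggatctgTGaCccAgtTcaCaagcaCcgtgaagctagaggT
RPL15B: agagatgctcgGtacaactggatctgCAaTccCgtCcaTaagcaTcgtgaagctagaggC

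RPL15A had a 51.2-fold excess over RPL15B in the mean of all libraries. The log2 ratio was 5.54, 5.65 and 5.43 in the knockout and 5.82 and 5.96 in the wild type. The copies were closer in level in every knockout library than in the wild type, a difference of -0.35 ± 0.10 (adjusted p = 0.107 over 60 pairs, and 0.0531 without knockout replicate 2). RPL22, RPL18 and RPL7 followed in imbalance, with copy A ahead 11.3-fold, 9.25-fold and 7.91-fold.

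RPL43 had the largest positive difference. Its log2 ratio was 1.79, 2.23 and 2.14 in the knockout and 1.53 and 1.77 in the wild type, which nearly touched, a difference of 0.40 ± 0.16 (adjusted p = 0.234). RPL37 had the opposite sign, at -0.33 ± 0.17 with overlap (adjusted p = 0.283). For RPL6 the log2 ratio was 1.03, 1.07 and 0.92 against 0.79 and 0.71, all knockout libraries higher, with a difference of 0.26 ± 0.09 (adjusted p = 0.171).

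Copies of a pair shared 68.2% to 99.4% of their coding bases, with a median of 93.2%, and 11 pairs encoded identical proteins. In 4 pairs the copies were at least 98% identical, RPL1 with 4 differing bases, RPL35 with 3, RPL4 with 12 and RPL42 with 6. How reads of such copies were shared out is not given in the sources used here, so single-copy values of these 4 pairs are uncertain and their sums are the safer measure. The limit is not confined to them, since RPL11, RPL7 and RPL2 share identical runs of 326, 245 and 188 bases. A stretch of RPL42, at coding positions 205 to 264, shows how few bases separate the copies, with the 3 that differ in capitals. RPL42A lies on chromosome XIV and RPL42B on chromosome VIII.
RPL42A: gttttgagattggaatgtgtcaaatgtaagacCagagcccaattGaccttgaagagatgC
RPL42B: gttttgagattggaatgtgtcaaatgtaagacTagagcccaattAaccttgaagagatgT

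With the copies of each RPL pair summed and the RPP genes kept apart, the members became 47 rows. None of these was called, and their median log2 fold change was 0.10. RPL4 as a sum had 4671, 5219 and 4925 FPKM against 5509 and 5653, all knockout libraries lower, with a log2 fold change of -0.18 ± 0.09 (adjusted p = 0.314). RPL34 as a sum had a log2 fold change of 0.38 ± 0.11 (adjusted p = 0.182).

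Introns, common in these genes and rare in yeast as a whole, were more frequent in short members. The 53 members with an intron had a median log2 fold change of 0.11 and a median coding length of 411 bp, and the 26 without one had -0.04 and 576 bp. Under 400 bp the medians were 0.23 for 25 genes with an intron and 0.21 for 6 without. From 400 bp to under 600 bp they were 0.09 for 21 genes with one and -0.02 for 8 without, and at 600 bp or more 0.01 for 7 and -0.13 for 12. With the length trend removed, the medians were 0.02 for all members with an intron and -0.11 for those without. The difference between members with and without an intron was not tested.

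Upstream of the members the letters of the Rap1 core were common. They were searched on both strands in the 500 bases before each start codon as CACCC and ACA with any 2 bases between them. They stood in 17 of 79 members (21.5%), 19.3% of the 57 small-subunit genes and 2.16% of 5881 genes with a full window. A stretch of 40 bases around these letters, in capitals, is printed for 2 members at the upper and 2 toward the lower end of the fold changes, read along the strand of the gene in the RefSeq R64 genome. They are chrXV:79935-79974 (plus strand) for RPL25, chrVIII:383088-383127 (minus) for RPL42B, chrVII:366224-366263 (minus) for RPL7A and chrVIII:36241-36280 (minus) for RPL8A. In RPL25 the letters are on the opposite strand.
RPL25: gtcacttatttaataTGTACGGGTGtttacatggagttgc
RPL42B: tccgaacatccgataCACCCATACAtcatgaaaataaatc
RPL7A: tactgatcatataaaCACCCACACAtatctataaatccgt
RPL8A: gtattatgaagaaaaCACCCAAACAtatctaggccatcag

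The same letters thus stood before genes with log2 fold changes of 0.41 (RPL25), 0.36 (RPL42B), -0.07 (RPL7A) and -0.09 (RPL8A). The 17 members with them had a median of 0.14 and a median coding length of 387 bp, and the 62 without had 0.06 and 490.5 bp. Other forms of Rap1 site were not searched, so the 62 are not known to lack one. The Fhl1 letters GACGCA stood before 19.0% of members and 10.8% of all genes. AAAATTTT, of the ribosomal RNA processing element, stood before 16.5% of members and 12.6% of all genes, and GATGAG, of the PAC element, before 22.8% and 28.1%. Both were common before the large-subunit assembly factors, at 78.5% and 87.7%.

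Those assembly factors, which build the subunit in the nucleolus and nucleus, had mostly lower values in the knockout. Of 65 tested, 62 had lower values and none was called, with a median log2 fold change of -0.29. Without knockout replicate 2, 34 were called lower, where 10.5% of all genes were. With the length trend removed as well, 2 were called lower, where 1.72% of all genes were. With the trend removed and all 5 libraries kept, the median was -0.21, against -0.0008 over all genes. In that setting 3 of the 65 had higher values in the knockout, against 2844 of all 5712 genes. All knockout libraries lay below the wild type for 49 of the 65 (75.4%), against 28.0% of all genes and 32.7% of all genes of 600 bp or more. Their median coding length was 1455 bp, against 468 bp for the large-subunit genes, and the difference between the lists was not tested. MDN1, a giant ATPase that remodels the pre-ribosome, had 10.8, 22.9 and 10.2 FPKM against 29.2 and 23.1, a log2 fold change of -0.88 ± 0.34 (adjusted p = 0.255). URB1 had a log2 fold change of -0.55 ± 0.21 (adjusted p = 0.241).

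The dedicated chaperones SQT1, RRB1, ACL4 and SYO1, which escort particular large-subunit proteins, had a median of -0.24, and -0.13 with the length trend removed. None was called, and 1 of the 4 was called lower without knockout replicate 2, where 10.5% of all genes were. Syo1 escorts Rpl5 and Rpl11, and SYO1 had a log2 fold change of -0.26 ± 0.13 (adjusted p = 0.320). Acl4 escorts Rpl4, and ACL4 had -0.24 ± 0.13 (adjusted p = 0.349). Among 12 regulators of ribosomal protein genes, none was called. Without knockout replicate 2, 3 were called lower, where 10.5% of all genes were. Their median was -0.21, and -0.03 with the length trend removed. TOD6, a repressor of ribosome biogenesis genes, had 31.0, 40.5 and 37.2 FPKM against 44.5 and 57.6. All its knockout libraries were lower, with a log2 fold change of -0.48 ± 0.15 (adjusted p = 0.201). IFH1, the co-activator that binds Fhl1, had 25.6, 26.7 and 26.4 FPKM against 30.6 and 34.3, all lower, with a log2 fold change of -0.29 ± 0.10 (adjusted p = 0.215).

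The 57 small-subunit genes had none called, a median of 0.09, or -0.01 after the common shift of equal FPKM sums, and a range from -0.20 to 1.01. Without knockout replicate 2, 4 of them were called higher and 1 lower, where 5.22% and 10.5% of all genes were. With the length trend removed as well, none was called higher and 1 lower. The 2 largest were again very short genes, RPS30B at 1.01 ± 0.20 (adjusted p = 0.132) and RPS29B at 0.82 ± 0.20 (adjusted p = 0.169).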

How the data were processed

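RNA sequencing tables of 5 libraries were used. The authors deposited FPKM per gene, one table per strain, per the file headers. Build R64 and, with no role given, DESeq2 1.4.5, RSEM 1.3.1, HISAT2 2.1.0 and Bowtie2 are named per the submitters' processing notes. The sources used here give neither annotation nor strand setting, so overlapping and antisense genes are uncertain. FPKM divides by gene length, so uneven coverage of long transcripts stays in the values.

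Depth was estimated from values up to 1.5 FPKM in genes of 250 to 1200 bp. At the estimate, 88.0% to 93.4% of 99 to 122 values per library lay within 0.15 of a whole fragment. It entered no test. Symbols of 2 genes turned into dates were restored by identifier.

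Tests of log2(FPKM + 1) used limma 3.58.1 (R 4.3.3), on a scale that understates changes of low genes, with a trended prior and robust empirical Bayes, genotype alone in the model, and 5712 genes of at least 1 FPKM in the mean. Ratios of copies were tested without the trend. Python 3.11.15, pandas 2.3.3, numpy 2.4.6, Biopython 1.88 and matplotlib 3.10.9 did the rest. In 3 simulations of this comparison over 5712 genes, 73.3% of genes changed 1.5-fold and 98% of those changed 2-fold were recovered, with 32 false calls. The simulated noise was independent between genes, without the shifts shared across a library that the real libraries show. These shares therefore do not give the power of the real comparison.

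Named were SUL1, the 6 members with the largest positive and the 6 with the largest negative fold change, the 3 with the highest and the 3 with the lowest level, preset members, the 4 pairs of largest change and of largest imbalance, and the 2 largest of each other list. Other names were chosen after their values were seen. The members and lists were chosen with earlier results of these data known. Alternatives were the pseudocount, the filter, the scaling, the length trend, the moderation, the replicate block and each library left out.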

Additional observations from a re-analysis of the deposited data

How the results depend on the processing

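With 3 and 2 libraries, single libraries weigh heavily. The count of genes called over the whole table was 15, and 8 with equal FPKM sums, 6 with the length trend removed, 19 with median-ratio scaling and 0 with the replicate block. It ranged from 0 to 896 when each library was left out, with 896 without knockout replicate 2. It was 295 with the length trend removed and that library left out, a setting chosen after seeing the data. Called members stayed at 0 in every setting run except when a library was left out, where the count ranged from 0 to 3. It was 1 without knockout replicate 1, where 9 of all genes tested were called, and 3 without knockout replicate 2, where 896 were. The members' median log2 fold change of 0.08 was -0.010 with equal FPKM sums, 0.15 with median-ratio scaling, -0.021 with the length trend removed and -0.059 with that and knockout replicate 2 left out. With a library left out it ranged from 0.0085 to 0.13. Called ratios ranged from 0 to 3 with a library left out, none of them a large-subunit pair. The members' share of the FPKM sum was higher in the knockout by 0.906 percentage points, and by 0.187 without knockout replicate 2.

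Deviations of same-numbered libraries correlated at -0.37 and -0.43, and knockout replicate 2 correlated with wild-type replicate 1 at 0.43. Knockout replicates 1 and 3 correlated with wild-type replicate 2 at 0.37 and 0.31. The deviations of 2 wild-type libraries mirror each other, so these values cannot decide whether replicate numbers pair the samples. With the replicate block no member was called and the median was 0.12.

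Equal FPKM sums shifted all genes by a median of -0.09 and median-ratio scaling by 0.063. Members within that distance above 0 under equal sums, or below 0 under median-ratio scaling, therefore change sign by construction. Among 32 named members, signs turned with equal FPKM sums for RPL7B (-0.063), RPP1B (-0.010), RPP2A (-0.018) and RPL11A (-0.043). They turned with the length trend removed for RPP1B (-0.10), RPP2A (-0.10) and RPL11A (-0.036), and with median-ratio scaling for RPL10 (0.058) and RPL40B (0.026). They also turned with a library left out, over which RPL7B ranged from -0.25 to 0.24, RPP2A from -0.042 to 0.16, RPL11A from -0.025 to 0.15, RPL10 from -0.027 to 0.016 and RPP1B from -0.00044 to 0.17. A pseudocount of 0.1, no filter and plain empirical Bayes turned none. For the other settings the cause was not tested.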
